A study of Mus musculus with 8 samples.

Results

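Capillary endothelial nuclei of the mouse heart were compared between tafazzin-deficient (Taz-KO) and wild-type (WT) mice by single-nucleus RNA sequencing, which counts the RNA molecules of single nuclei as unique molecular identifiers (UMIs). A nucleus was taken as capillary endothelial, and is called a member here, if it had at least 800 UMIs outside mitochondrial genes and if the 6 genes Ccdc85a, Mcf2l, Adgrl4, Dipk2b, Cyyr1 and Ablim3 held at least 3 times the share of its UMIs that they held in its whole library, with at least 4 UMIs. It also had to stay at or below 2 times the library's share for endocardial genes (Npr3, Smoc1, Nrg1, Tmem108, Chrm3) and macrophage genes (F13a1, Mrc1, Cd163), and at or below 1 time for cardiomyocyte genes (Ryr2, Ttn) and fibroblast genes (Gpc6, Bicc1, Pdgfra). Of the 167504 barcodes with at least 800 UMIs, from 169193 in all, 12652 met the rule, or 7.55%. Each library came from the whole heart of a single mouse (4 WT, 4 Taz-KO), and the mouse was the replicate throughout. All mice were male and 9 weeks old, the hearts had been minced and cryopreserved before nuclei were released, and the genotype was the sole labelled difference between the groups. No promoter that would limit the knockout to a cell type is named for the Taz-KO mice, so a difference in capillary nuclei cannot be told apart from an effect of tafazzin loss in other cells. Replicates are numbered 1 to 4 within each genotype.

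Capillary endothelium lines the smallest vessels of the heart muscle, where almost every cardiomyocyte lies beside a capillary. It controls the passage of fatty acids from blood to muscle through transporters such as CD36, FABP4 and GPIHBP1, and its growth and upkeep depend on VEGF, angiopoietin, Notch and BMP signals. Tafazzin is the acyltransferase that remodels cardiolipin, a signature lipid of the inner mitochondrial membrane, and its loss in humans causes Barth syndrome, a disease with cardiomyopathy.

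The libraries differed in depth. Their totals ran from 20025456 to 348080773 UMIs, and the sums over members from 477359 UMIs in Taz-KO 1 and 697116 in Taz-KO 4 to 14388525 in Taz-KO 2. A count of 0 therefore allowed up to 6.28 CPM (a gene's UMIs relative to all UMIs of the members, on 1 scale for every library) in Taz-KO 1 and up to 4.30 CPM in Taz-KO 4, against at most 0.535 CPM in the other 6 libraries, as far as counting error alone goes. The median member held 4742, 5620, 3914 and 3270 UMIs in WT 1 to 4 and 3067, 3656, 2586 and 1954.5 UMIs in Taz-KO 1 to 4, a difference with an exact two-sided permutation p of 0.0571 over the 70 groupings of the mice (smallest possible 0.0286). Mitochondrial genes took a median of 2.77% to 33.3% of a member's UMIs. Any 2 libraries shared between 2 and 294 barcodes, and 15 barcodes were members in more than 1 library, which makes 30 members. Free RNA, released into the suspension and captured with every nucleus, was estimated from 22 cardiomyocyte genes that the rule did not use, by taking all of their UMIs in members as free RNA with the composition of the tenth of barcodes with the fewest UMIs. Those barcodes held a median of 3237, 4196, 2734 and 1783 UMIs outside mitochondrial genes in WT 1 to 4 and 2213, 2548, 2041 and 536 in Taz-KO 1 to 4. They are thus the shallowest barcodes of each file and not known to be empty droplets, and how far they hold RNA of nuclei was not tested. On that reading it made up 56.4, 67.5, 62.2 and 48.4% of the members' UMIs in WT 1 to 4 and 63.9, 65.6, 79.8 and 25.9% in Taz-KO 1 to 4 (exact permutation p = 1.00). With the composition of the whole library instead, the estimate was 75.7, 92.1, 90.5 and 44.1% in WT and 69.6, 75.3, 76.8 and 20.2% in Taz-KO. Taz-KO 4 was the lowest library by both estimates. The estimate can exceed a gene's measured level and is therefore given beside results as a value and not as a fact about a gene.

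The label was checked with genes outside the rule. All 11 capillary genes checked lay above their level in the whole library, in cardiomyocyte nuclei and in endocardial nuclei. These ratios are averages over the 8 mice and do not show how well the label holds in each mouse. In Taz-KO 1 it depended on the reference of the rule. With the mean share over the libraries as reference, Taz-KO 1 had 40 members in place of 91 and 356 endocardial nuclei in place of 63. Kdr, a VEGF receptor, stood at 3.78 times its library level, 14.7 times its level in cardiomyocyte nuclei and 2.26 times that in endocardial nuclei. Meox2, a transcription factor of endothelial fatty acid uptake, stood at 4.59, 21.1 and 4.03 times, and Btnl9, a butyrophilin-like gene of capillaries, at 4.88, 18.3 and 4.06 times. Of the 11, Cd36 had the lowest ratios to the library and to cardiomyocyte nuclei, at 1.66 times the library level and 1.27 times the cardiomyocyte level, and 91.6% to 100% of cardiomyocyte nuclei carried a Cd36 UMI. All 12 genes of endothelium in general lay above library and cardiomyocyte level and 7 above endocardial level. Pecam1, Emcn and Eng, which code for endothelial surface proteins, were at 0.648, 0.635 and 0.530 times their endocardial level. A UMI of Flt1, the other main VEGF receptor, was found in 71.4% to 95.7% of the members of a library and in 10.4% to 55.2% of its cardiomyocyte nuclei, with a median of 1954.5 to 5620 UMIs per member and 7852.5 to 24381 UMIs per cardiomyocyte nucleus.

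**Figure D1:**
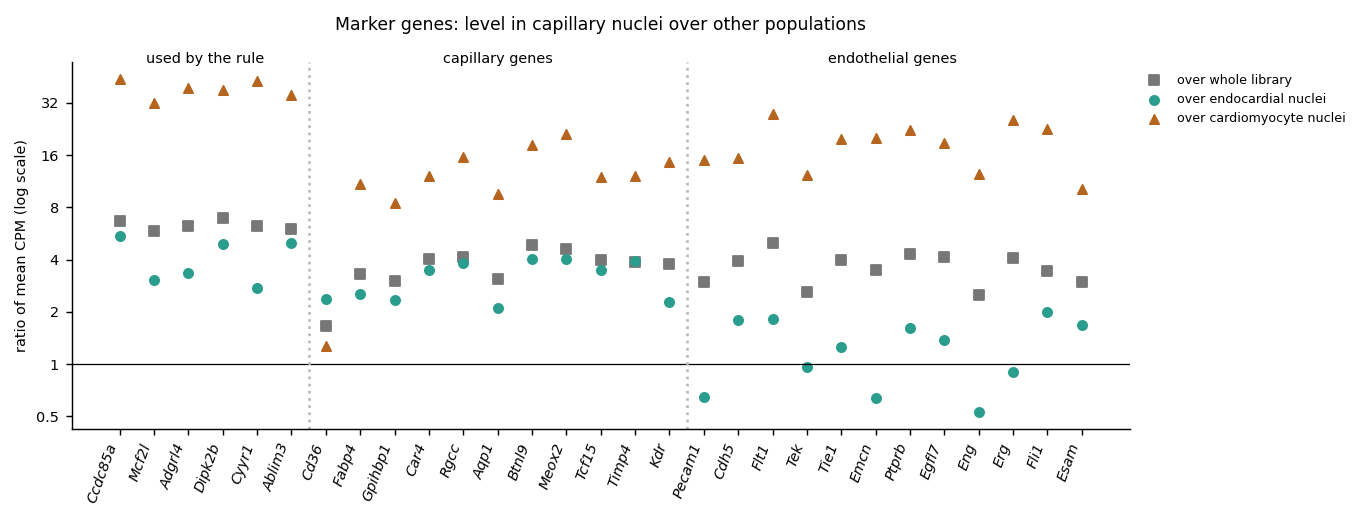
Mean CPM of marker genes in capillary nuclei divided by the mean CPM in the whole library, in endocardial nuclei and in cardiomyocyte nuclei (log axis, 8 mice), for the 6 genes of the rule, 11 capillary genes and 12 endothelial genes. The capillary genes outside the rule lie above 1 in all 3 ratios, with Cd36 nearest to 1 against the library and cardiomyocyte nuclei, and Pecam1, Emcn and Eng lie below 1 against endocardial nuclei.

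Outside the rule's genes, the genes with the highest ratio to the library were G630055G22Rik (7.18 times), Gm29007 (6.60 times), Rundc3b (5.88 times), Gm12002 (5.63 times), the transcriptional regulator Zfp366 (5.58 times) and the protocadherin Pcdh17 (5.54 times). They are a description, since the nuclei were chosen by genes that vary with them. At the edge of the rule, members with an enrichment of 3 to 3.5 had Flt1 at 423 to 1455 CPM in the 8 libraries, and barcodes just outside, at 2.5 to 3, had 433 to 1016 CPM. Barcodes on both sides of the edge carried Flt1.

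The share of capillary nuclei did not differ between genotypes beyond the spread between mice. The number of members was 1439, 1432, 1388 and 2455 in WT 1 to 4 and 91, 3555, 1970 and 322 in Taz-KO 1 to 4. As a share of barcodes with at least 800 UMIs this was 6.37, 4.94, 6.44 and 11.6% in WT and 2.62, 9.79, 6.68 and 8.26% in Taz-KO. The genotypes overlapped, with means of 7.33% ± 2.92 (SD, n = 4) and 6.84% ± 3.09 and a difference of -0.496 percentage points (exact two-sided permutation p = 0.857). Endocardial and lymphatic nuclei (lymphatic genes Mmrn1, Prox1, Reln, Flt4, Pkhd1l1 and Ccl21a) held their own genes at 3 times the library's share or more, with at least 4 UMIs. They met the members' limits for cardiomyocyte, fibroblast and macrophage genes and were not members. Endocardial nuclei numbered 783, 896, 764 and 608 in WT and 63, 1269, 1153 and 99 in Taz-KO. Among nuclei of the capillary, endocardial and lymphatic endothelial classes, members made up 54.4, 48.8, 54.6 and 75.7% in WT and 35.5, 68.1, 55.6 and 72.0% in Taz-KO, with means of 58.4% ± 11.9 and 57.8% ± 16.4 (exact permutation p = 0.971). The spread between mice of 1 genotype was wider than the difference between genotypes for both shares. The first share is of barcodes, which are not all known to be nuclei, and the study kept fewer nuclei after its own filters. The poorest barcode held 3979, 6522, 3487 and 2165 UMIs in WT 1 to 4 and 500, 3952, 2482 and 500 in Taz-KO 1 to 4. The limit of 800 UMIs thus left out barcodes of Taz-KO 1 and 4 alone. Shares of nuclei recovered cannot tell fewer capillary cells in the heart from fewer of their nuclei in the suspension.

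**Figure D2:**
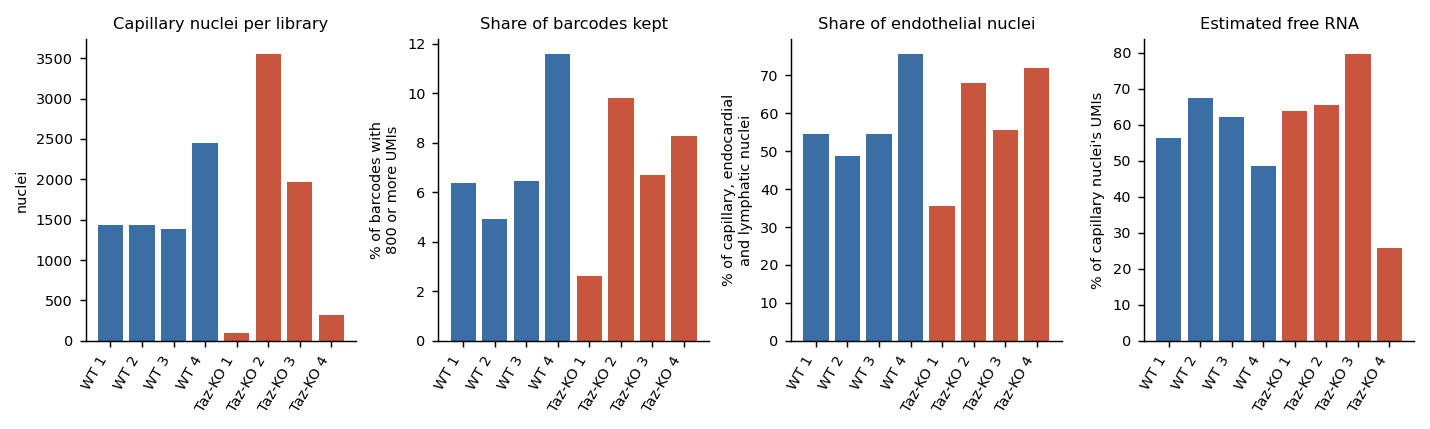
Capillary nuclei in each of the 8 libraries: their number, their share of barcodes with at least 800 UMIs (%), their share of the 3 endothelial classes (%), and the estimated percentage of their UMIs from free RNA. Bars are single mice, WT and Taz-KO in different colours. Taz-KO 1 and 4 hold 91 and 322 members against 1388 or more in the others, and the shares of the genotypes overlap.

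Taz, the targeted gene (chrX:74281912-74290151, plus strand, GRCm38), was measured in the members of all 8 libraries. It stood at 30.5, 39.1, 32.9 and 33.4 CPM in WT 1 to 4 and at 15.7, 19.99, 13.6 and 8.72 CPM in Taz-KO 1 to 4. Every Taz-KO mouse lay below every WT mouse, but Taz was not called at an adjusted p of 0.05 (log2 fold change -1.13, SE 0.22, adjusted p = 0.0544). DESeq2 called it (adjusted p = 0.00310), and edgeR called it without Taz-KO 4 (adjusted p = 0.0320), with the other size factors (adjusted p = 0.0470) and with no filter on low counts (adjusted p = 0.0340), while leaving out each of the other 7 mice gave adjusted p-values of 0.0823 to 0.261. The free-RNA estimate for Taz in members was 18.4, 26.9, 17.1 and 19.0 CPM in WT and 2.69, 12.0, 11.1 and 4.36 CPM in Taz-KO. In cardiomyocyte nuclei Taz stood at 52.7, 48.4, 54.6 and 47.7 CPM in WT and 44.4, 35.8, 27.5 and 28.6 CPM in Taz-KO, also without overlap. Dnase1l1 overlaps Taz on the opposite strand. Which exons the knockout removes is not given in the sources used here, and UMIs of a remaining transcript would count in full.

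Between genotypes, 91 of 15267 genes tested passed an adjusted p of 0.05 in edgeR's quasi-likelihood test on sums per mouse, or 0.596%, of which 66 were higher (0.432%) and 25 lower (0.164%) in Taz-KO. In 89 of the 91 the mice of the genotypes did not overlap, against 881 of all genes tested (5.77%). The calls and the overlap were read from the same sums, so the count of 89 adds no separate evidence. The thresholds of the study, an adjusted p of 0.001 with a log2 fold change beyond 0.58, left 5 genes (0.0328%): Vmn2r3, Tenm4, Ptprt, Gm24474 and Ostn. DESeq2 called 249 genes (1.63%), all of the 91 among them. With WT 1, 2, 3 or 4 left out, 35, 27, 33 and 63 genes were called higher and 4, 4, 8 and 19 lower. With Taz-KO 1, 2, 3 or 4 left out, 41, 12, 16 and 166 were called higher and 8, 2, 6 and 46 lower, and without Taz-KO 1 and 4 together 116 higher and 15 lower. The median log2 fold change of all genes was 0.01.

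The genes that follow are described by their measured levels in members. Of the 91 genes called, 72 stood below their cardiomyocyte level and 69 had a free-RNA estimate of 80% or more, as described further on. The 10 largest rises and 10 largest falls were taken from called genes with a mean of at least 5 CPM whose genotypes do not overlap. The lack of overlap in these genes was thus part of the choice. The 10 genes with the largest rise in Taz-KO members stood at 9.24 CPM or less in every WT mouse. Vmn2r3, a gene of the vomeronasal receptor family, stood at 0.127, 0.115, 0.323 and 0.117 CPM in WT and 62.7, 68.9, 70.7 and 34.9 CPM in Taz-KO (log2 fold change 8.41, SE 0.37, adjusted p = 3.94e-06). Its family has near-identical copies, so reads may have been split between genes, and its fold rests on 5 UMIs in all WT members. Tenm4, which codes for a teneurin, a transmembrane adhesion protein, rose from 9.24, 8.97, 5.32 and 6.88 CPM to 170.4, 181, 179 and 145 CPM (log2 fold change 4.47, SE 0.22, adjusted p = 6.39e-06). Ostn, which codes for the secreted peptide osteocrin, rose from 0, 0.230, 0.161 and 0.350 to 13.7, 21.0, 20.1 and 4.36 CPM (log2 fold change 6.34, SE 0.55, adjusted p = 0.000771). In each of these 3 genes all 4 Taz-KO mice lay above all WT mice, and Taz-KO 4 was the lowest of the 4.

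Ptprt, a receptor tyrosine phosphatase, rose from 1.77, 2.76, 1.77 and 3.03 to 13.7, 27.8, 28.8 and 18.9 CPM (log2 fold change 3.36, SE 0.29, adjusted p = 0.000771). Fam227b rose from 2.28, 2.53, 3.23 and 2.22 to 64.6, 33.0, 25.9 and 14.5 CPM (log2 fold change 3.67, SE 0.38, adjusted p = 0.00229) and overlaps Galk2 and Fgf7 on the opposite strand. Soat2, a sterol O-acyltransferase that forms cholesteryl esters, rose from 0.886, 0.690, 1.77 and 0.350 to 13.7, 13.2, 17.0 and 2.91 CPM (log2 fold change 3.86, SE 0.48, adjusted p = 0.00654). Tex22 rose from 5.31, 1.03, 1.61 and 0.700 to 29.4, 27.3, 68.3 and 11.6 CPM (log2 fold change 4.10, SE 0.64, adjusted p = 0.0233), a call kept 3 of 8 times with a mouse left out (adjusted p up to 0.118). The other 3 of the 10 largest rises, Gdf15, Chac1 and Phgdh, belong to the stress response described further on.

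The 10 genes with the largest fall included 2 muscle genes and 4 transcripts without a name. Strit1, which codes for the DWORF peptide that activates the calcium pump SERCA in muscle, fell from 10.4, 20.5, 16.1 and 4.08 CPM in WT to 1.96, 0.419, 0.858 and 0 CPM in Taz-KO (log2 fold change -4.39, SE 0.70, adjusted p = 0.0251). Rpl3l, the muscle counterpart of the ribosomal protein gene Rpl3, fell from 62.5, 79.5, 67.9 and 35.1 to 15.7, 13.98, 10.99 and 2.91 CPM (log2 fold change -2.40, SE 0.35, adjusted p = 0.0141). Ogdhl, an oxoglutarate dehydrogenase-like enzyme, fell from 23.4, 30.6, 20.3 and 13.9 to 1.96, 6.15, 6.18 and 2.91 CPM (log2 fold change -1.999, SE 0.32, adjusted p = 0.0254). By measured values, no Taz-KO mouse reached the lowest WT mouse in any of these 3 genes. For Strit1 the 0 of Taz-KO 4 allows up to 4.30 CPM, above the 4.08 CPM of WT 4.

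Hs3st5, a heparan sulfate sulfotransferase, fell by 1.52 on the log2 scale (SE 0.25, adjusted p = 0.0283), from 84.3, 95.8, 62.6 and 133 to 33.3, 39.9, 26.6 and 30.5 CPM. Fgf14, a modulator of sodium channels, fell by 1.61 (SE 0.29, adjusted p = 0.0427), and Crhr2, a receptor of the corticotropin-releasing hormone family, by 1.73 (SE 0.31, adjusted p = 0.0398). The 4 transcripts without a name were Gm20757 (-3.83), Gm24474 (-3.13), Gm26862 (-2.95) and Gm32027 (-1.44). Gm20757 and Gm26862 had 0 UMIs in the members of Taz-KO 1, where a count of 0 allows up to 6.28 CPM, and Gm20757 and Strit1 had 0 in those of Taz-KO 4, where it allows up to 4.30 CPM. Several of these calls depended on single mice. With each of the 8 mice left out in turn, Fgf14 and Crhr2 were called 1 time (adjusted p up to 0.180 and 0.184), Strit1 and Ogdhl 2 times (up to 0.229 and 0.147), Hs3st5 and Gm32027 3 times (up to 0.145 and 0.205) and Rpl3l 4 times (up to 0.117).

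**Figure D3:**
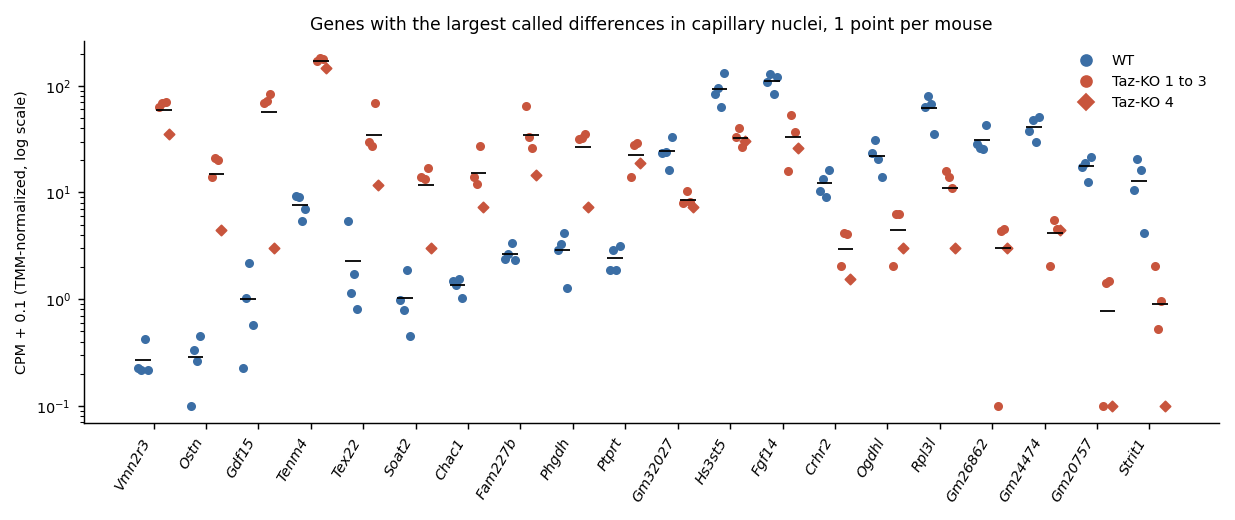
TMM-normalized CPM plus 0.1 (log axis) of the 10 genes with the largest rise and the 10 with the largest fall in capillary nuclei of Taz-KO mice, 1 point per mouse. The 20 genes were chosen among called genes whose genotypes do not overlap. Taz-KO 4 is often the lowest Taz-KO mouse, as for Gdf15 (2.91 CPM against 68.5 to 84.1).

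Most genes called were not capillary genes by level. Of the 91, 79 were below the level of the whole library in members, and 72 (79.1%) were below the level in cardiomyocyte nuclei, against 31.8% of all genes tested. For 69 of them (75.8%, against 25.7% of all genes) the free-RNA estimate came to 80% or more of the level in the higher genotype. Of the 66 that rose, 49 (74.2%) were lowest in Taz-KO 4 among the Taz-KO mice, the library with the lowest free-RNA estimate, against 47.6% of all genes that were higher in Taz-KO. After the free-RNA estimate was subtracted from the sums, 33 of the 91 genes could still be tested, 10 of these had changed sign and 0 were called by edgeR, with 521 of 11537 genes at an unadjusted p below 0.05. With the composition of the whole library as free RNA, 9 of the 91 could be tested, 0 had changed sign and 0 were called, with 205 of 9576 genes at an unadjusted p below 0.05. DESeq2 was not run on the subtracted sums. Where the estimate exceeded the measured level, the subtraction set the value to 0, which by itself can turn the sign of a fold change. Of all genes tested, 0 were called after either subtraction, so the loss of calls is not particular to the 91. The same limits hold for the subtracted values of the gene lists given further on. How much of the 91 differences arose in capillary nuclei themselves was not tested further.

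Genes of the integrated stress response were the list with the largest share of calls among the 52 lists read. The lists were chosen with earlier results of these data known, so this rank and the counts below are not independent of them. In the integrated stress response, the transcription factor ATF4 raises amino acid synthesis and transport. Of 28 genes listed, 27 were tested, 26 had a log2 fold change above 0 and 10 were called, all higher in Taz-KO (against 0.432% of all genes called higher), with a median log2 fold change of 1.10 (range -0.31 to 6.12) against 0.01 over all genes. In 12 of them the genotypes did not overlap, against 2.8% of all genes higher in Taz-KO without overlap. The list took 0.0499, 0.0510, 0.0518 and 0.0354% of members' UMIs in WT and 0.117, 0.115, 0.138 and 0.0442% in Taz-KO, with Taz-KO 4 inside the WT range. The median of the list was 1.03 in endocardial nuclei and 2.15 in cardiomyocyte nuclei, and the median free-RNA estimate was 97.9% of the measured level in the higher genotype. Of the 27 genes, 16 were above their cardiomyocyte level in members.

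The element that ATF4 binds with C/EBP partners was looked for in the promoters of these genes to show its place, as TGATGNAA on either strand in RefSeq promoters of GRCm38.p6, from 250 bases before to 50 after the start of each gene. It was in 4.51% of the 27025 genes with a promoter, in 9 of the 26 list genes with a promoter, and in 3 of the 9 called ones with a promoter. The 3 matches are shown 5′ to 3′ on the strand of the gene within 30 bases, with the matching letters in capitals. The Chac1 stretch is chr2:119351038-119351067 (plus strand), with the element on the opposite strand and beginning 193 bases before the RefSeq start of the gene. The Trib3 stretch is chr2:152344028-152344057 (minus strand), with the element again on the opposite strand and 14 bases after the start, and the Asns stretch is chr6:7693214-7693243 (minus strand), with the element on the gene's own strand and 23 bases before the start. A match is a description of letters and not of binding.
Chac1: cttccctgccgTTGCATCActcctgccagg
Trib3: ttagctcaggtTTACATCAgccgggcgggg
Asns: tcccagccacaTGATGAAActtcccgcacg

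Gdf15, a secreted cytokine of cell stress, stood at 0.127, 0.920, 2.10 and 0.466 CPM in WT and at 68.5, 72.1, 84.1 and 2.91 CPM in Taz-KO (log2 fold change 6.12, SE 0.77, adjusted p = 0.00708). Taz-KO 1 to 3 were far above WT, while the 2.91 CPM of Taz-KO 4 came from 2 UMIs and lay just above the highest WT value. Mthfd2, a mitochondrial enzyme of folate metabolism, rose from 7.21, 6.56, 9.84 and 6.88 to 76.4, 77.5, 83.9 and 26.2 CPM (log2 fold change 3.16, SE 0.32, adjusted p = 0.00222). Asns, asparagine synthetase, rose from 5.31, 5.18, 6.29 and 5.13 to 39.2, 52.8, 50.6 and 11.6 CPM (log2 fold change 2.92, SE 0.34, adjusted p = 0.00511). In both genes every Taz-KO mouse was above every WT mouse and Taz-KO 4 was the lowest of the Taz-KO mice.

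Of the serine synthesis enzymes, Phgdh rose from 2.78, 3.22, 4.03 and 1.17 to 31.3, 32.4, 35.4 and 7.27 CPM (log2 fold change 3.36, SE 0.43, adjusted p = 0.00709) and Psat1 from 4.05, 2.99, 1.29 and 1.05 to 13.7, 12.5, 14.4 and 4.36 CPM (log2 fold change 2.34, SE 0.43, adjusted p = 0.0456). Slc7a5, a transporter of neutral amino acids, rose from 3.16, 2.07, 2.58 and 3.38 to 23.5, 9.36, 20.9 and 8.72 CPM (log2 fold change 2.42, SE 0.36, adjusted p = 0.0155). Chac1, an enzyme that breaks down glutathione and holds one of the 3 elements shown, rose from 1.39, 1.26, 1.45 and 0.933 to 13.7, 12.0, 27.1 and 7.27 CPM (log2 fold change 3.70, SE 0.39, adjusted p = 0.00288). The genotypes did not overlap in any of these 4 genes by measured values. For Psat1 the 4.36 CPM of Taz-KO 4 lay close to the 4.05 CPM of WT 1. A count of 0 allows up to 4.30 CPM in Taz-KO 4.

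Among regulators, Trib3, a pseudokinase, rose from 10.00, 9.32, 9.84 and 8.86 to 72.5, 44.5, 44.5 and 15.99 CPM (log2 fold change 2.20, SE 0.31, adjusted p = 0.0128). Ddit3, which codes for the transcription factor CHOP, rose from 15.9, 21.5, 17.6 and 14.9 to 70.5, 58.2, 50.8 and 21.8 CPM (log2 fold change 1.53, SE 0.28, adjusted p = 0.0427) and overlaps Mars on the opposite strand. Sesn2, a sestrin that restrains the growth kinase mTORC1, rose from 2.78, 4.83, 4.68 and 4.78 to 7.83, 14.5, 12.5 and 8.72 CPM (log2 fold change 1.51, SE 0.27, adjusted p = 0.0398). With a mouse left out in turn, Psat1 and Ddit3 were called 1 of 8 times (adjusted p up to 0.232 and 0.219), Sesn2 2 times (up to 0.244), Trib3 3 times (up to 0.0894) and Slc7a5 4 times (up to 0.121). Atf4 itself stood at 56.6, 74.4, 60.2 and 57.4 CPM in WT and 129, 134, 171 and 26.2 CPM in Taz-KO and was not called (log2 fold change 0.92, SE 0.40, adjusted p = 0.552), with Taz-KO 1 to 3 above and Taz-KO 4 below all WT mice. Trib3, Ddit3, Psat1 and Asns lie outside the rule for naming genes and were chosen after their values were seen.

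The free-RNA estimate for these genes was near the measured level in most Taz-KO libraries. For Gdf15 it was 97.0, 70.4, 92.0 and 6.98 CPM in Taz-KO 1 to 4, against a measured 73.3, 71.7, 87.4 and 2.87 CPM before TMM normalization. For Asns it was 55.7, 50.9, 52.3 and 8.72 CPM against 41.9, 52.5, 52.6 and 11.5 CPM. For Mthfd2 it was 70.9, 85.1, 88.7 and 6.10 CPM against 81.7, 77.1, 87.2 and 25.8 CPM, so that in Taz-KO 4 the measured level exceeded the estimate. Once the estimate was subtracted, 15 genes of the list could be tested, 9 of them with log2 fold changes above 0 (median 0.47), and 0 were called. With the composition of the whole library as free RNA, 13 could be tested, 12 of them above 0 (median 1.22), and again 0 were called. The number of list genes called was 17 without Taz-KO 4, 13 without Taz-KO 1 and 4 together, 3 without Taz-KO 2, 4 without Taz-KO 3, 6, 5 and 6 without WT 1, 2 or 3, 9 without WT 4 and 7 without Taz-KO 1.

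**Figure D4:**
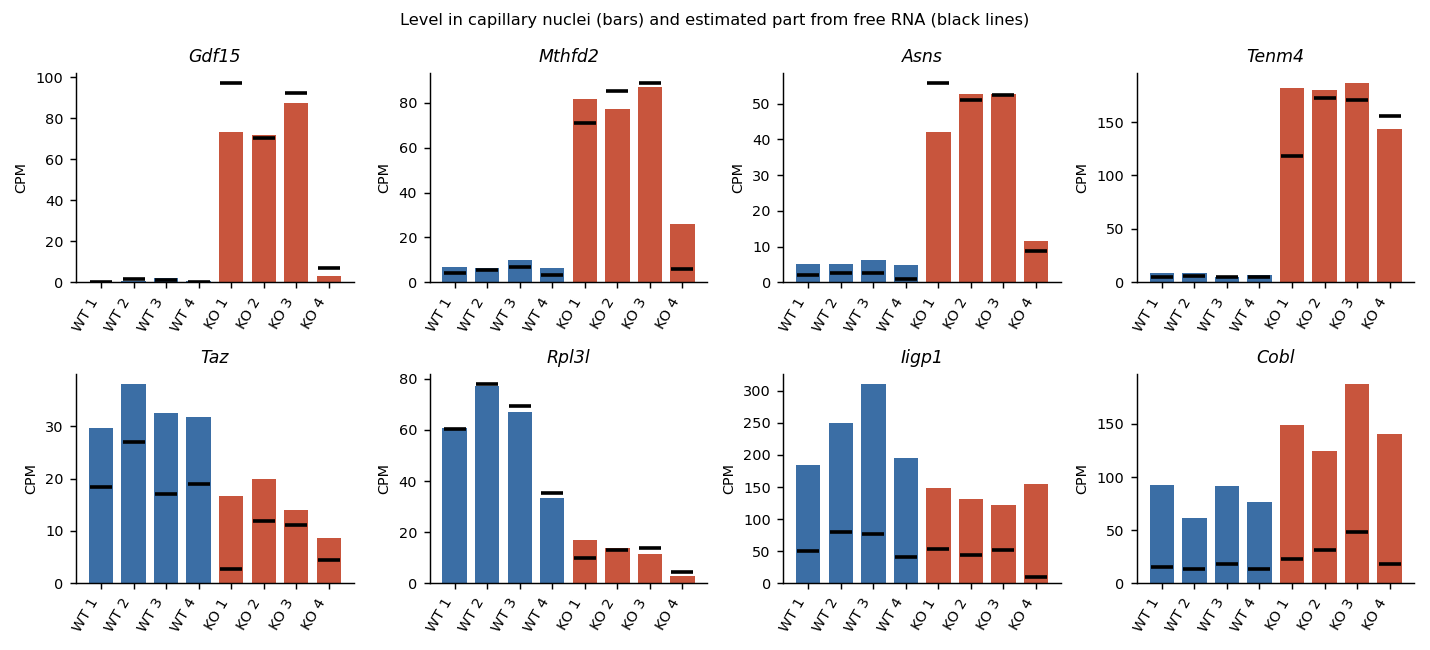
Measured CPM in capillary nuclei (bars, 1 per mouse) and the part estimated to come from free RNA with the composition of the tenth of barcodes with the fewest UMIs (black lines) for Gdf15, Mthfd2, Asns, Tenm4, Taz, Rpl3l, Iigp1 and Cobl. The lines lie near the tops of the bars for Gdf15, Asns and Rpl3l and well below them for Iigp1 and Cobl.

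Genes of capillary function were read in 15 lists. Over these lists (VEGF and angiopoietin, Notch, BMP and TGF-β, fatty acid handling, flow and nitric oxide, junctions, basement membrane, leukocyte adhesion, antigen presentation, interferon response, tip cell genes, transcription factors, transporters, guidance and Wnt), 297 of 305 genes were tested, with a median log2 fold change of -0.04. edgeR called 1 of them (against 0.596% of all genes), Slc7a5, which is also on the stress list, and DESeq2 called 6 (against 1.63%). An unadjusted p below 0.05 was found for 24 (8.08%, against 8.53% of all genes tested), and 15 had genotypes without overlap (5.05%, against 5.77%). The counts of the single lists that follow stand against the same shares of all genes. The transporter list held more than the others, with 7 of its 19 genes at an unadjusted p below 0.05, 4 without overlap (3 higher and 1 lower in Taz-KO), 2 called by DESeq2 and a median of 0.03.

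Of the VEGF and angiopoietin list, 0 of 16 genes were called by edgeR (against 0.596% of all genes) and 1 by DESeq2 (against 1.63%), with 2 at an unadjusted p below 0.05 (against 8.53%). The receptor Flt1 stood at 1193 ± 313 CPM in WT and 1524 ± 751 in Taz-KO (mean ± SD, n = 4 each). Kdr stood at 502 ± 164 and 404 ± 86.0 CPM, and Tek, the angiopoietin receptor, at 447 ± 111 and 415 ± 169.9 CPM. For each of these receptors the difference was smaller than the SD of the more variable genotype. It was larger than the WT SD for Flt1 and than the Taz-KO SD for Kdr. The co-receptor Nrp1 stood at 1287 ± 268 and 1048 ± 401 CPM. Angpt1, the ligand of Tek, stood at 80.1, 120.4, 96.4 and 136 CPM in WT and 33.3, 68.6, 44.3 and 21.8 CPM in Taz-KO without overlap (log2 fold change -1.27, SE 0.30, adjusted p = 0.129), and DESeq2 called it (adjusted p = 0.0131). Its level in members was 0.349 times that in cardiomyocyte nuclei, where its log2 fold change was -2.14.

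Of the Notch list, 0 of 17 genes were called by edgeR (against 0.596% of all genes), 1 by DESeq2 (against 1.63%) and 2 had an unadjusted p below 0.05 (against 8.53%). The ligand Dll4, a gene of capillary and arterial endothelium, stood at 39.7, 36.8, 39.995 and 47.8 CPM in WT and 29.4, 31.8, 33.8 and 30.5 CPM in Taz-KO. All Taz-KO mice were below all WT mice, with log2 fold change -0.37, SE 0.15, adjusted p = 0.527. Rbpj, the DNA-binding partner of Notch, stood at 398, 402, 367 and 411 CPM in WT and 221, 248, 246 and 241 CPM in Taz-KO, again without overlap (log2 fold change -0.72, SE 0.18, adjusted p = 0.142), and DESeq2 called it (adjusted p = 2.78e-06). Its free-RNA estimate was 86.5% of the level, it stood at 0.565 times its library level in members, and its log2 fold change was -0.62 in endocardial and -0.18 in cardiomyocyte nuclei. The coactivator Maml2 stood at 818 ± 145 and 748 ± 241 CPM. Angpt1, Dll4, and also Ednrb, Ptgs1 and Ciita, named below, were chosen after their values were seen.

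Genes of BMP and TGF-β signalling gave 0 calls among 27 by edgeR and 0 by DESeq2, with 1 at an unadjusted p below 0.05 and a median of -0.06. The ligand Bmp6 stood at 523 ± 91.3 CPM in WT and 513 ± 228 in Taz-KO, and Ltbp4, which binds latent TGF-β, at 473 ± 86.5 and 587 ± 215 CPM. Flow and nitric oxide genes gave 0 calls among 20 by edgeR, 1 by DESeq2 and 2 at an unadjusted p below 0.05. Ednrb, the endothelin receptor through which endothelium responds with nitric oxide, stood at 62.3, 51.9, 60.2 and 51.0 CPM in WT and 70.5, 123, 94.6 and 96.0 CPM in Taz-KO (log2 fold change 0.79, SE 0.18, adjusted p = 0.118, DESeq2 adjusted p = 0.00939). Ptgs1, a cyclooxygenase of prostacyclin synthesis, stood at 59.6, 47.2, 49.99 and 35.2 and 74.4, 69.2, 74.0 and 82.9 CPM (log2 fold change 0.64, SE 0.18, adjusted p = 0.229). The lowest Taz-KO mouse lay above the highest WT mouse in both genes, and both stood above library and cardiomyocyte level in members. Cav1 and Cavin2, of caveolae, stood at 562 ± 76.7 and 492 ± 130.1 CPM and at 418 ± 42.3 and 417 ± 42.3 CPM. Cavin1, also of caveolae and chosen after its values were seen, was lower in Taz-KO without overlap (log2 fold change -0.44, SE 0.23, adjusted p = 0.698). It stood at 198, 224, 244 and 196 CPM in WT and 170, 176, 190 and 96.0 CPM in Taz-KO.

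Fatty acid handling, a leading task of cardiac capillaries, gave 0 calls among 27 genes by edgeR and 0 by DESeq2, with 2 at an unadjusted p below 0.05. Of the 27 genes, 19 were lower in Taz-KO, with a median of -0.21. That median ran from -0.28 without Taz-KO 2 to -0.14 without WT 3 when a mouse was left out. After the free-RNA estimate was subtracted it was -0.21, and with the composition of the whole library -0.38. The transporter Cd36 stood at 1401, 1499, 2553 and 2504 CPM in WT and 756, 1812, 1261 and 1224 CPM in Taz-KO (log2 fold change -0.65, SE 0.34, adjusted p = 0.698). The lipid chaperone Fabp4 stood at 1156, 1392, 1855 and 1178 and 1173, 1344, 1229 and 954 CPM (log2 fold change -0.25, SE 0.26, adjusted p = 0.989), and Gpihbp1, which anchors lipoprotein lipase on the capillary wall, at 134, 137, 201 and 108 and 108, 141, 113 and 90.1 CPM (log2 fold change -0.35, SE 0.23, adjusted p = 0.838). The genotypes overlapped in all 3 genes. Of their transcriptional regulators, Meox2 stood at 129.7 ± 19.5 and 131 ± 43.1 CPM, Tcf15 at 61.1 ± 12.3 and 52.8 ± 10.9 CPM and Pparg at 307 ± 76.3 and 268 ± 117 CPM.

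Cell junction genes (0 of 20 called by edgeR, 0 by DESeq2, 0 at an unadjusted p below 0.05) and basement membrane genes (0 of 20, 0 and 0) had medians of -0.03 and -0.07. Cdh5, VE-cadherin, stood at 377 ± 92.8 CPM in WT and 384 ± 95.9 in Taz-KO, and Col4a1, of collagen IV, at 841 ± 226 and 779 ± 87.0 CPM. Endothelial transcription factors gave 0 calls among 31 by edgeR and by DESeq2 and 0 at an unadjusted p below 0.05, with Erg at 262 ± 66.4 and 243 ± 119 CPM and Fli1 at 1092 ± 305 and 1113 ± 570.3 CPM. Leukocyte adhesion genes gave 0 calls among 18 by both tools and 0 at an unadjusted p below 0.05. Tip cell, guidance and Wnt genes gave 0 calls among 16, 22 and 19 by both tools, with 2, 3 and 2 at an unadjusted p below 0.05.

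**Figure D5:**
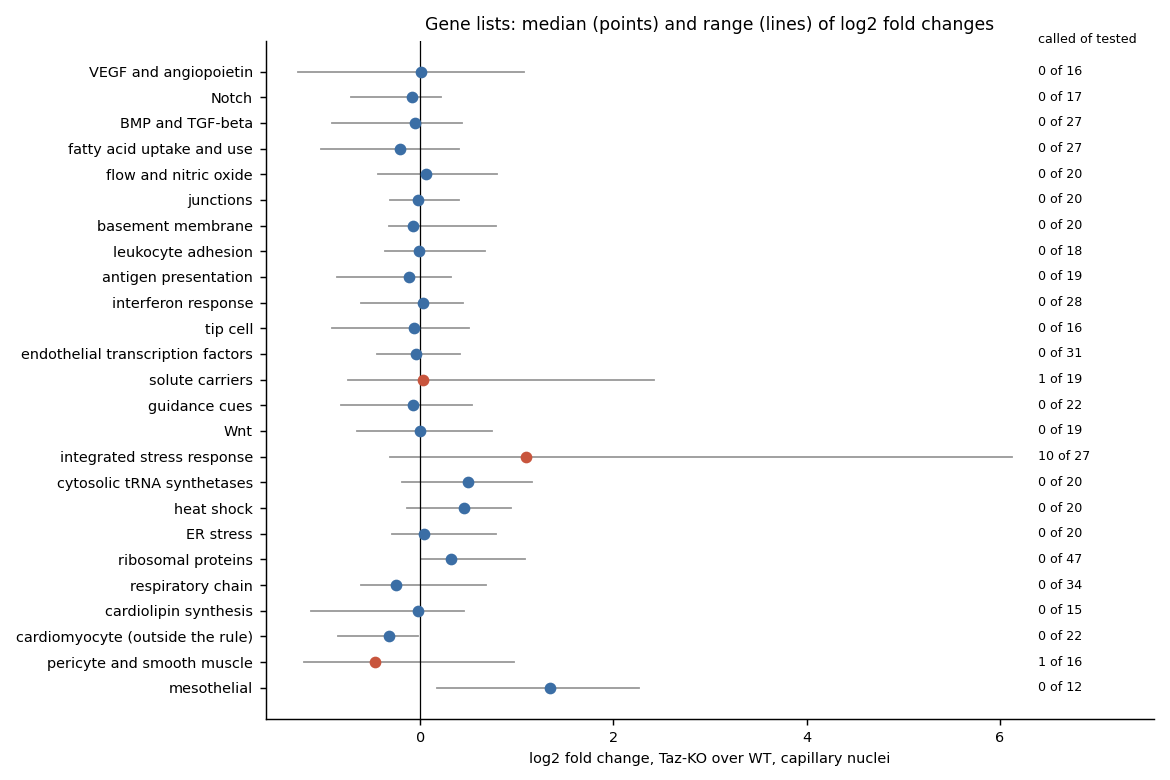
Median (point) and range (line) of the log2 fold changes of Taz-KO over WT in capillary nuclei for 25 gene lists, with the number of genes called of those tested at the right. The range of the integrated stress list reaches farthest to the right, with a median of 1.10 and 10 of 27 called. The mesothelial list has the highest median, at 1.34, and the lists of capillary function have medians between -0.21 and 0.06.

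Genes enriched in capillary nuclei were compared with all genes by count only, with no test of the difference. Of the genes tested, 797 (5.22%) stood at 2 times their library level or more in members, and edgeR called 1 of them, or 0.125%, against 0.596% of all genes. DESeq2 called 5 (0.627%, against 1.63%), namely Adamts18, Prl2c3, Cobl, Rapgef4os1 and Iigp1. An unadjusted p below 0.05 was found for 62 (7.78%, against 8.53%). The genotypes did not overlap in 22 (2.76%, against 5.77%), 12 higher (2.8% over all genes) and 10 lower (2.97% over all genes) in Taz-KO, and the median log2 fold change was -0.03. The direction of that median turned with the mice and was -0.25 without Taz-KO 4 (215 of 797 above 0), 0.10 without WT 4 (515 of 796), 0.03, 0.0066 and 0.06 without Taz-KO 1, 2 and 3, and -0.05, -0.10 and -0.05 without WT 1, 2 and 3. After the free-RNA estimate was subtracted the median was 0.04, with 444 of 796 above 0. With the composition of the whole library it was -0.42, with 128 of 786 above 0. Adamts18, Prl2c3, Cobl, Rapgef4os1 and Iigp1 were chosen after their values were seen. The ratio to the library is a mean over all 8 mice, so a gene low in WT can enter this set through the Taz-KO mice. Adamts18 (2.27 times) and Prl2c3 (2.09 times) were low in WT and stood near the limit of 2 times.

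Adamts18, a secreted metalloprotease, stood at 1.01, 1.495, 1.29 and 0.816 CPM in WT and at 1.96, 6.08, 4.12 and 8.72 CPM in Taz-KO and was the enriched gene that edgeR called (log2 fold change 2.19, SE 0.36, adjusted p = 0.0283). Its level rests on 118 UMIs in Taz-KO, and leaving out 1 mouse at a time kept the call 2 of 8 times (adjusted p 0.0236 to 0.225). Cobl, an actin nucleator, stood at 95.4, 62.8, 92.2 and 80.4 CPM in WT and 139, 125, 180.4 and 142 CPM in Taz-KO without overlap (log2 fold change 0.83, SE 0.19, adjusted p = 0.118, DESeq2 adjusted p = 0.00953), with a free-RNA estimate of 20.1% of its level. Prl2c3, of the prolactin family, stood at 3.67, 2.99, 4.52 and 4.20 and 5.88, 8.67, 8.24 and 13.1 CPM (log2 fold change 1.20, SE 0.26, adjusted p = 0.0876). By measured values all 3 were higher in every Taz-KO mouse than in any WT mouse, and Taz-KO 4 was not the lowest Taz-KO mouse in any of them. In Taz-KO 1, Adamts18 and Prl2c3 stood below the 6.28 CPM that a count of 0 allows there.

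Iigp1, an interferon-inducible GTPase, was lower in Taz-KO by DESeq2 and did not pass edgeR's test. It stood at 190.2, 257, 313 and 204 CPM in WT and 139, 131, 117 and 157 CPM in Taz-KO (log2 fold change -0.83, SE 0.21, adjusted p = 0.166, DESeq2 adjusted p = 0.0271). The genotypes did not overlap, its level in members was 2.78 times its library level, and its free-RNA estimate was 26.4% of it. In cardiomyocyte nuclei its log2 fold change was -2.15 (adjusted p = 0.0148).

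The interferon response list was split in direction, with 15 of 28 genes higher, 0 called by edgeR and by DESeq2, 2 at an unadjusted p below 0.05 and a median of 0.02. Antigen presentation genes gave 0 calls among 19 by edgeR, 1 by DESeq2 and 1 at an unadjusted p below 0.05. That gene, Ciita, the activator of MHC class II genes, stood at 16.7, 16.6, 18.4 and 18.7 CPM in WT and 7.83, 10.1, 9.10 and 11.6 CPM in Taz-KO without overlap (log2 fold change -0.86, SE 0.18, adjusted p = 0.0865, DESeq2 adjusted p = 0.0144). B2m and H2-K1, of MHC class I, stood at 473 ± 110.2 and 533 ± 279 CPM and at 307 ± 58.5 and 318 ± 158 CPM.

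Beside the stress genes, cytosolic tRNA synthetases, which load amino acids on tRNAs, were higher in Taz-KO in 17 of 20 genes, with a median of 0.50, 0 called by edgeR, 7 by DESeq2 (against 1.63% of all genes) and 11 at an unadjusted p below 0.05 (against 8.53%). In 7 the genotypes did not overlap, all higher in Taz-KO (against 2.8% of all genes). The number called by edgeR was 7 without Taz-KO 4, 3 without Taz-KO 1 and 4 together and 2 with no filter on low counts. It stayed at 0 with any other single mouse left out. After the free-RNA estimate was subtracted, 3 of 20 were above 0 (median -0.25), and with the composition of the whole library 7 of 19 (median -0.28). Gars stood at 47.5, 52.1, 53.5 and 35.0 CPM in WT and 123, 118, 112 and 61.1 CPM in Taz-KO (log2 fold change 1.15, SE 0.23, adjusted p = 0.0664), and Sars at 47.1, 43.9, 46.1 and 29.7 and 94.0, 106, 91.7 and 58.2 CPM (log2 fold change 1.09, SE 0.22, adjusted p = 0.0660), both chosen after their values were seen. The list's median was 1.36 in cardiomyocyte nuclei. Ribosomal protein genes had log2 fold changes above 0 in 47 of 47 genes (median 0.32, 0 called by edgeR and by DESeq2, 0 at an unadjusted p below 0.05), and took 1.13, 1.35, 1.41 and 0.445% of UMIs in WT and 2.06, 1.67, 1.79 and 0.353% in Taz-KO. Taz-KO 4 was below all WT mice in that share and Taz-KO 1 to 3 above them. The median was 0.06 without WT 4, with 34 of 47 above 0, 0.13 without Taz-KO 1 and 0.63 without Taz-KO 4. After subtraction it was -1.36, with 1 of 47 above 0, and -0.08 with the composition of the whole library, with 17 of 47 above 0.

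Lists of the respiratory chain and of cardiolipin metabolism gave no call by edgeR. Of nuclear genes of the respiratory chain, 31 of 34 had log2 fold changes below 0 (median -0.25, 0 called by edgeR and by DESeq2, 0 at an unadjusted p below 0.05). After the free-RNA estimate was subtracted the median was -1.02, with 28 of 33 lower, and with the composition of the whole library -0.45, with 31 of 34 lower. The direction turned with the mice. Without Taz-KO 4 the median was 0.04, with 20 of 34 above 0, and without Taz-KO 1 and 4 together 0.11, with 22 of 34 above 0. Without WT 2 or WT 3 it was -0.05 and -0.14, and without WT 4, Taz-KO 2 or Taz-KO 3 it was -0.46, -0.41 and -0.38. Of genes of cardiolipin metabolism, to which Taz belongs, 0 of 15 were called by edgeR and 1, Taz, by DESeq2, with 2 at an unadjusted p below 0.05 and a median of -0.02. Hadha, which can also remodel cardiolipin, stood at 323 ± 119 CPM in WT and 213 ± 91.0 in Taz-KO. ER stress genes were higher in 10 of 20 (median 0.04, 0 called by edgeR, 1 by DESeq2, 3 at an unadjusted p below 0.05).

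Markers of other cell types were read in members too. The 22 cardiomyocyte genes outside the rule took 2.28, 3.28, 2.88 and 1.09% of members' UMIs in WT and 1.86, 2.39, 2.24 and 0.558% in Taz-KO (exact permutation p = 0.371), and 22 of 22 had log2 fold changes below 0 with a median of -0.32. That median rested on Taz-KO 4 in large part, since it was -0.07 without it, with 8 of 22 above 0, and -0.0052 without Taz-KO 1 and 4 together, with 11 of 22 above 0. Without WT 2 it was -0.18, and without WT 4, Taz-KO 2 or Taz-KO 3 it was -0.55, -0.50 and -0.54. Genes of mesothelium, the outer lining of the heart, were higher in 12 of 12 (median 1.34, 0 called by edgeR, 9 at an unadjusted p below 0.05 against 8.53% of all genes, 0 called by DESeq2). The median was 0.89 with the stricter marker rule, with 9 of 10 higher, 0.52 with the rule on thinned barcodes, with 8 of 10 higher, and 0.69 with each member thinned, with 6 of 6 higher. They took 0.0146, 0.0211, 0.0222 and 0.0174% of UMIs in WT and 0.106, 0.0303, 0.0394 and 0.0208% in Taz-KO, highest in Taz-KO 1 with its 91 members. Endocardial genes took 0.0619, 0.0629, 0.0680 and 0.0535% in WT and 0.141, 0.0701, 0.0897 and 0.0452% in Taz-KO, again highest in Taz-KO 1.

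Pericytes and smooth muscle cells wrap capillaries and larger vessels. The median log2 fold change of 16 pericyte and smooth muscle genes was -0.47, with 1 of 16 called (against 0.164% of all genes called lower), 12 of 16 lower and 3 lower without overlap (against 2.97%). The median was -0.22 without WT 2 and -0.22 without Taz-KO 4, and 0 genes were called without WT 1, WT 2, WT 3, Taz-KO 1 or Taz-KO 2. Without the pericyte-high members 0 of 15 genes were called (median -0.36), and with the stricter marker rule also 0 of 15 (median -0.46). After the free-RNA estimate was subtracted the median was -3.17, with 0 of 9 higher. With the composition of the whole library it was -0.41, with 2 of 13 higher. The list took 0.119, 0.146, 0.157 and 0.105% of UMIs in WT and 0.109, 0.0978, 0.115 and 0.0321% in Taz-KO. Between 5.59% and 19.1% of the members of a library had a pericyte enrichment above 2, and 328 members (2.59%) were high in lymphatic genes. The part of these other cells in the differences between genotypes was not tested beyond the fit without the pericyte-high members, which called 56 genes, 54 of them among the 91.

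States of capillary cells were compared as the share of members with at least 2 UMIs of a gene list, after each member was thinned to 1000 UMIs, which left out 21 shallower members, all of Taz-KO 4. Arterial genes were found in 53.6, 50.4, 51.9 and 62.2% of members in WT and 31.9, 56.7, 48.1 and 60.8% in Taz-KO (means 54.6% ± 5.29 and 49.3% ± 12.8, exact permutation p = 0.571, adjusted over the 5 lists 1.00). The same share was 0.789 to 6.29% in cardiomyocyte nuclei. Tip cell genes were found in 65.8% ± 9.05 and 65.9% ± 3.02 (exact permutation p = 1.00, adjusted 1.00), and interferon genes in 45.2% ± 4.93 and 45.0% ± 5.31 (p = 0.914, adjusted 1.00), against 7.37 to 20.5% and 0.789 to 6.52% in cardiomyocyte nuclei. Cell cycle genes were found in 2.78, 1.82, 1.95 and 2.08% in WT and 6.59, 3.60, 2.08 and 2.66% in Taz-KO (2.15% ± 0.430 and 3.73% ± 2.01, exact permutation p = 0.114, adjusted 0.571), against 0.263 to 0.717% in cardiomyocyte nuclei, and the highest share, in Taz-KO 1, rests on 6 of 91 members. Venous genes were found in 77.7, 76.2, 75.6 and 35.3% and 90.1, 76.9, 87.0 and 18.6% (exact permutation p = 0.943, adjusted 1.00), lowest in WT 4 and Taz-KO 4, the libraries with the lowest free-RNA estimates, and in 1.32 to 37.6% of cardiomyocyte nuclei. Genotypes overlapped in all 5 states.

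Whether a difference between genotypes was particular to capillary nuclei was tested against the other endothelial classes, with the mouse as a block. Against endocardial nuclei, 4 of 15630 genes differed (0.0256%), with 598 (3.83%) at an unadjusted p below 0.05, and 0 genes differed once WT 3, WT 4 or Taz-KO 2 was left out, 2 without WT 1 and 11 without Taz-KO 1 and 4 together. Smad6, an inhibitor of BMP signalling, had a log2 fold change of 0.35 in capillary and -0.51 in endocardial nuclei, each from a fit of that class alone. The fit of both classes with the mouse as a block, which gives the test, put the difference at 1.02 (SE 0.14, adjusted p = 0.0109). In members it stood at 42.6, 56.4, 66.4 and 83.3 CPM in WT and 102, 65.6, 57.2 and 103 CPM in Taz-KO, which overlap, and in endocardial nuclei at 275, 338, 384 and 636 CPM and 481, 177, 212 and 361 CPM, which overlap too. Flrt2, an adhesion protein of cell guidance, differed by 0.96 (SE 0.14, adjusted p = 0.0109), with 0.69 in capillary and -0.25 in endocardial nuclei. Mindy4, of a deubiquitinase family, differed by 1.06 (SE 0.16, adjusted p = 0.0213), with 0.60 in capillary and -0.46 in endocardial nuclei. The transcript Gm15581, which is enriched in members, differed by -0.68 (SE 0.11, adjusted p = 0.0306). It did not fall in capillary nuclei, where its log2 fold change was 0.31, against 1.04 in endocardial nuclei. The 2 classes of 1 mouse come from 1 library, so the block removes what they share in depth and free RNA only in part.

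Lymphatic endothelial nuclei were few, at 421, 609, 390 and 180 in WT and 102, 399, 418 and 26 in Taz-KO. With the rule on barcodes thinned to 800 UMIs they numbered 93, 84, 98 and 55 in WT and 4, 108, 83 and 12 in Taz-KO. The class thus depended on depth. Against lymphatic endothelial nuclei, 0 of 13494 genes differed (0%) by edgeR and 1 by DESeq2, with 472 (3.5%) at an unadjusted p below 0.05. The smallest p was that of Adgrl3, an adhesion receptor. It stood at 66.2, 70.3, 68.4 and 72.5 CPM in WT and 25.5, 44.0, 40.5 and 30.5 CPM in Taz-KO members, without overlap, and at 106, 98.7, 87.5 and 148 CPM and 110.3, 212, 125 and 160.3 CPM in lymphatic nuclei, where the genotypes overlapped. The difference of the log2 fold changes was -1.30 (SE 0.21, adjusted p = 0.0512). Adgrl3 was lower in Taz-KO in endocardial nuclei too, with a log2 fold change of -0.71 against -0.91 in members.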

How the data were processed

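Single-nucleus libraries (10x 3′ v3.1) of 4 WT and 4 Taz-KO hearts were used. The files hold UMI counts as the authors deposited them (Cell Ranger 6.0.1, mm10, introns included, whole numbers for each barcode and gene), taken before their steps against ambient RNA and doublets. The 13 mitochondrial genes were left out. No doublet caller was run. Instead, members above 2 in pericyte genes, or among the 5% with the most UMIs, were left out as alternatives. Counts of members were summed per mouse and compared by edgeR 4.0.16 under R 4.3.3 (TMM, filterByExpr, robust quasi-likelihood F test, Benjamini-Hochberg over all genes, called at 0.05), and with DESeq2 1.42.0 as the other tool. The study tested nuclei with MAST, which was replaced by these sums. Scripts used Python 3.11.15, numpy 2.4.6, scipy 1.17.1 and pandas 2.3.3, and were tested on simulated data. CPM are TMM-normalized unless set beside another population. p-values measure the spread between mice. Shares were compared by exact permutation over 70 groupings. Intervals and limits of a count of 0 (3 counts) cover counting error only. The members, gene lists and named genes were chosen with earlier results of these data known. Genes named are Taz, markers, the 10 highest and 10 lowest called genes with a mean of at least 5 CPM whose genotypes do not overlap, up to 4 called genes and the 2 most abundant of a list, and up to 5 genes per interaction test. Positions of genes follow GENCODE vM21 (GRCm38, as for the counts) and promoters RefSeq on GRCm38.p6. Alternatives were other member rules, depths, normalization, filters, free-RNA subtraction and left-out mice. Some genes are not reported here.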

Additional observations from a re-analysis of the deposited data

Results flagged for a closer look

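In groups of 4 mice, a mouse was singled out where its gap to the nearest of the others exceeded Dixon's 95% value of 0.829 of the range of the group. Chance flags about 1 in 20 groups, and 9 of 126 groups were singled out.

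Among called genes, Phgdh stood at 7.27 CPM in Taz-KO 4 against 31.3 to 35.4 CPM in the other Taz-KO mice, and Mthfd2 at 26.2 CPM against 76.4 to 83.9 CPM. Both enzymes serve serine and folate metabolism. Taz-KO 4 was also singled out by the free-RNA estimate made with the composition of the whole library, at 20.2% of members' UMIs against 69.6% to 76.8%. Whether the free RNA accounts for the lower values in that mouse was not tested.

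In the WT group, Vmn2r3 stood at 0.323 CPM in WT 3 against 0.115 to 0.127 CPM, Asns at 6.29 CPM in WT 3 against 5.13 to 5.31 CPM, and Sesn2 at 2.78 CPM in WT 1 against 4.68 to 4.83 CPM. Gbp4, chosen after its values were seen, stood at 47.6 CPM in WT 1 against 76.8 to 80.7 CPM, and the genotypes overlap in Gbp4. Apol10b, an enriched gene, stood at 21.8 CPM in Taz-KO 4 against 9.79 to 10.99 CPM. Venous genes were found in 35.3% of the members of WT 4 against 75.6% to 77.7% in the other WT mice.

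The difference between genotypes differed between capillary and endocardial nuclei for 4 genes by the interaction test, by 1.02 for Smad6, 0.96 for Flrt2, 1.06 for Mindy4 and -0.68 for Gm15581 on the log2 scale.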

How the results depend on the processing

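The number of genes called moved with the choice of members, of mice and of the tool, and the cause was not tested. The number of genes called higher in Taz-KO, 66 as reported, became 32 with the stricter marker rule, 7 with the rule on thinned barcodes, 14 with each member thinned, 0 after either free-RNA subtraction, 160 by DESeq2, 107 with no filter and 116 without Taz-KO 1 and 4, and 12 to 166 with a mouse left out. The number called lower, 25 as reported, became 8, 3, 4, 0, 89, 46 and 15 under the same alternatives and 2 to 46 with a mouse left out, with 10 without pericyte-high members and 12 without the members with the most UMIs. The 5 genes past the study's thresholds became 2 (1500 UMIs, thinned rule or thinned members), 8 (mean share as reference), 0 (subtraction), 87 (DESeq2), 18 (no filter) or 11 (without Taz-KO 1 and 4), and 2 to 21 with a mouse left out. The 4 genes that differed from endocardial nuclei became 7 (thinned rule), 9 (mean share), 1 (without pericyte-high members), 15 (thinned members), 0 (subtraction), 75 (no filter) or 11 (without Taz-KO 1 and 4), and 0 to 5 with a mouse left out. Against lymphatic nuclei 0 became 1 (stricter rule, 1500 UMIs, thinned members, subtraction of the lowest-UMI profile, DESeq2), 5 (thinned rule) or 57 (no filter), and 0 to 1 with a mouse left out. All 91 genes were also called by DESeq2 and with the other size factors, and 37 with the stricter rule.

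Shares changed sign or size, with every p above 0.05. The share of barcodes became 0.794 (stricter rule), 0.186 (thinned rule) or 0.903 percentage points (without Taz-KO 1 and 4), and -1.48 to 0.922 with a mouse left out. The share of endothelial nuclei became -11.7 (mean share as reference), 8.01 (stricter rule), 1.19 (without pericyte-high members) or 3.47 (without Taz-KO 1 and 4), and -5.30 to 6.87. The state shares became 0.165 (stricter rule) and -11.0 (no thinning) for arterial genes (-9.03 to 0.610 with a mouse left out), -11.0 (no thinning) and -3.01 (at least 1 UMI) for venous genes (-8.35 to 18.5), -3.65 (no thinning) and -0.602 (without Taz-KO 1 and 4) for tip genes (-3.41 to 3.06), -8.99 (no thinning), 2.48 (at least 1 UMI), 1.07 (stricter rule) and 0.425 (without Taz-KO 1 and 4) for interferon genes (-1.95 to 2.06), and -2.50 for cell cycle genes without thinning.

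After subtraction of the lowest-UMI profile the log2 fold changes of Gm26862 (0.024), Gm32027 (1.05), Sesn2 (-1.44), Ddit3 (-0.29) and Asns (-1.32) changed sign. Of the 29 called genes named, 9 (Chac1, Fam227b, Gm20757, Gm24474, Mthfd2, Ostn, Ptprt, Tenm4 and Vmn2r3) were called with each mouse left out in turn. No paired analysis was possible because the labels give no replicate number, so that the numbers 1 to 4 follow the order of the samples and tie no mice together. Depth limits the low genes of Taz-KO 1 and 4, where 3 counts amount to 6.28 and 4.30 CPM.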
